A study of Pomacea canaliculata with 36 samples.

Results

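The 119 genes described here were lost from the eye stalk of *Pomacea canaliculata* within 1 day of amputation and were partly back by day 3. They were chosen from the 21131 genes of the count table by their group means in CPM (counts scaled to a common library total, on totals scaled by TMM factors), each the mean of 4 libraries. A gene was taken when its Intact mean was at least 5 CPM and its mean at 1 day was at most 12.5% of the Intact mean. Its mean at 3 days had to be over 12.5% of Intact, its mean at 6 days between 12.5% and 50%, and its mean at 28 days over 25%. A further bound asked for a 12-day mean over 50% of the 9-day mean. The levels at those days therefore define the set and are given below as a description, and only 15 and 21 days were free of the rule.

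The study sequenced polyadenylated RNA from eye stalks of this freshwater apple snail, whose eye sits on a stalk beside the tentacle, before and during regeneration of the eye. Its 36 libraries fell into 9 groups of 4: Intact eye stalks, and eye stalks at 1, 3, 6, 9, 12, 15, 21 and 28 days post amputation (dpa). No other treatment, genotype, strain, age or sex is given for any group. The labels do not say whether the 4 libraries of a group came from separate or from pooled animals, so p-values below measure only the spread between these libraries. The study's design text lists day 7 where the labels have 6dpa, and the labels were followed.

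The eye of this snail is of the camera type, as that of vertebrates is: a cornea and a lens throw an image on a single retina of photoreceptors. Removal of the stalk's tip takes the cornea, the lens, the retina and the nerve endings with it, and the transcripts made only in those tissues leave the stump with them. In gastropods that regenerate the eye, the wound is closed by epithelium, cells divide beneath it, and the eye parts form again over the following weeks. A transcript of lost cells can return in the bulk RNA of the stump as such cells form again, or as the remaining cells make more of it, and bulk libraries cannot tell a change in the number of cells of a type from a change in RNA per cell. All 119 genes matched an entry of a RefSeq gene table (assembly ASM307304v1), which gives locus identifiers and no product names. The genes are therefore described by identifier and level, no role is given to any of them, and the tissue could not be checked against marker genes.

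Library totals lay between 21797015 and 32928737 counts, and 1 CPM stood for 19.2 counts in the smallest library, 1dpa replicate 4. Among the 119 genes, the fewest counts of a gene summed over the 4 1dpa libraries were 9, and the median was 198. Intact replicate 1 was the highest of the 4 Intact libraries for 78 of the 119 genes, and 3dpa replicate 4 was the highest of its group for 61. Next came replicate 1 of 9dpa with 53 genes, of 15dpa with 52 and of 28dpa with 51. These counts were not made over all tested genes, and the rule favours genes that are high in an Intact or a 3dpa library. The part of Intact replicate 1 and of 3dpa replicate 4 in the results was not tested beyond leaving them out, and values without them are given where they matter.

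Of the genes with at least 5 CPM in Intact, 12066 in number, 722 were at 12.5% of Intact or less at 1dpa. The bound at 3dpa left 296 of these, the band at 6dpa left 155, the 12dpa bound left 120 and the 28dpa bound left 119. Of the lost genes outside the set, 129 failed only at the 3dpa bound, 116 only at the upper bound at 6dpa and 4 only at its lower bound. Genes lay close to either side of the 3dpa bound and of the upper 6dpa bound. Just inside the 3dpa bound stood LOC112566575 at 12.531% and LOC112555695 at 12.561% of Intact, and just outside it LOC112573563 at 12.407% and LOC112566157 at 12.396%. Just inside the upper 6dpa bound stood LOC112553707 at 49.90% and LOC112567715 at 49.55%, and just outside it LOC112573918 at 50.15% and LOC112575559 at 50.34%. The lower 6dpa bound was thinly filled, with LOC112560741 at 13.54% and LOC112562388 at 13.72% inside, and LOC112563878 at 12.08% and LOC112567735 at 10.46% outside.

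Membership rested on group means, and single libraries often lay across a bound. All 4 3dpa libraries were over 12.5% of the Intact mean for 76 genes, 3 of 4 for 28 genes, 2 of 4 for 12 and 1 of 4 for 3. All 4 1dpa libraries were at or under that level for 66 genes, all 4 6dpa libraries lay in the band for 82, and 25 genes met the bounds of all 3 days in every library. With the scaling held, 58 genes stayed members whichever library was left out and 61 did not in at least 1 case. Without Intact replicate 1 the rule chose 107 genes, 92 of them among the 119, and without 3dpa replicate 4 it chose 121, 111 of them among the 119. With the scaling held, 10 of the 119 were at or under the 3dpa bound without 3dpa replicate 4, among them the named genes LOC112561876, LOC112566921, LOC112573790, LOC112557893, LOC112566575 and LOC112555695, and 2, LOC112561876 and LOC112555695, were under their own 1dpa mean. The 3dpa mean of 6 genes was lower by over 1.5 times without that library.

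In Intact eye stalks the 119 genes together held 1.08% ± 0.109 (SD, n = 4) of all counts. At 1dpa their share was 0.0863% ± 0.0134, and by 3dpa it was 0.188% ± 0.0567. The 6dpa libraries held 0.265% ± 0.0347 and the 28dpa libraries 0.634% ± 0.0376. At 3dpa, replicate 4 held 0.273% and the other libraries between 0.156% and 0.165%. A single gene, LOC112561876, gave between 29.3% and 38.8% of the set's counts in the Intact libraries, so medians over genes are used from here on.

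At 1, 3, 6 and 9 days the median gene stood at 9.27%, 18.7%, 29.7% and 40.7% of its Intact mean, in that order. The levels at 12, 15, 21 and 28 days were 45.2%, 46.8%, 56.1% and 65.7%. The rise of the median was thus steep to 9dpa, shallow from 9dpa to 15dpa and steeper again afterwards. Group means were higher at 3dpa than at 1dpa for all 119 genes, as the rule requires. Of the 119, 97 had a higher mean on day 6 than on day 3, 100 on day 9 than on day 6, 76 on day 12 than on day 9, 58 on day 15 than on day 12, 90 on day 21 than on day 15 and 104 on day 28 than on day 21. The mean was higher at every step in 6 genes: LOC112556361, LOC112566921, LOC112567195, LOC112572298, LOC112573113 and LOC112575206, named for that course after their values were seen. These counts are of means, with no test.

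**Figure D1:**
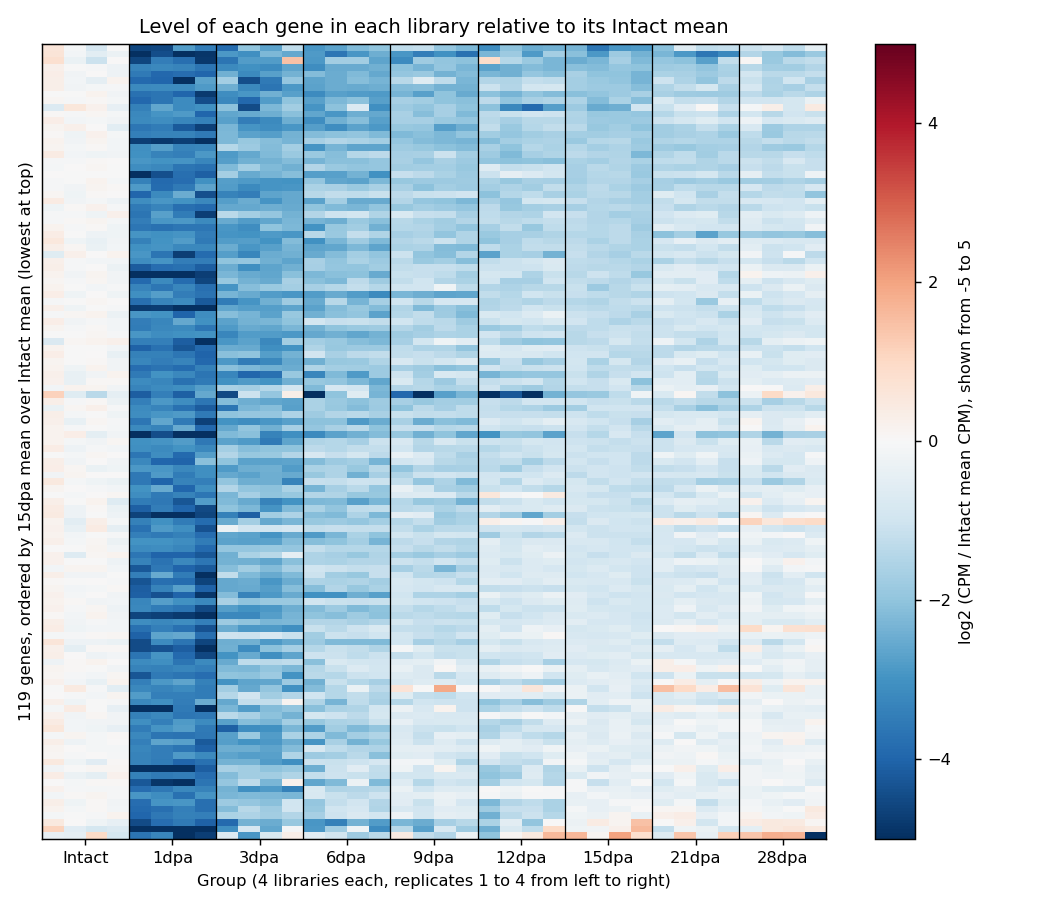
Level of each of the 119 genes (rows, ordered by 15dpa mean over Intact mean, lowest at the top) in each of the 36 libraries (columns, 4 per group), as log2 of CPM over the gene's Intact mean. The 1dpa columns are the darkest blue, and blue is paler by 28dpa, though the mean rises at every step in only 6 genes. A few rows turn red at 9dpa or later, among them the bottom row, LOC112576996, at 251.4% of Intact at 15dpa.

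The genes reached 50% of Intact on different days. The mean first reached that level on day 3 in 6 genes, on day 9 in 33 and on day 12 in 30. Only 1 gene first reached it on day 15, followed by 19 on day 21 and 8 on day 28, and 22 genes never reached it. None could first reach it at 1dpa or 6dpa under the rule. Of the genes that reached 50%, 57 stayed at or over it in every later group and 40 were under it again in a later group. The highest mean after amputation fell on 28dpa in 75 genes, on 12dpa in 17, on 21dpa in 15, on 15dpa in 9, on 3dpa in 2 and on 9dpa in 1.

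The contrasts that the rule bounds are listed as a description, beside the share of all 17341 tested genes called in the same direction by edgeR's quasi-likelihood test at an adjusted p under 0.05. All 119 were lower at 1dpa than in Intact (39.7% of tested genes), 115 at 3dpa (32.4%) and 117 at 6dpa (26.0%). At 28dpa 68 were lower than Intact (14.9%) and 2 were higher (14.9%). From 1dpa to 3dpa 100 were higher (28.9%), from 3dpa to 6dpa 55 were higher (15.2%) and 3 lower (16.1%), and from 6dpa to 9dpa 53 were higher (9.68%) and 2 lower (9.69%). From 9dpa to 12dpa 39 were higher (16.5%) and 14 lower (12.8%), and from 12dpa to 15dpa 16 were higher (12.6%) and 14 lower (15.7%). From 21dpa to 28dpa 3 were higher (0.525%), LOC112562125, LOC112564750 and LOC112573434, the last named after its values were seen. In that contrast 34 of the 119 had an unadjusted p under 0.05 from the same test in either direction. The share of all tested genes with such an unadjusted p was not computed.

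At 15dpa, a time the rule did not use, most of the set was still below Intact. Of the 119 genes, 103 were lower than Intact by edgeR's quasi-likelihood test and 16 did not pass (22.0% of all tested genes were lower). The median log2 fold change was -1.10 over the set and 0.02 over all tested genes. Called lower by at least 2-fold were 69 genes of the set and 1321 of all 17341 tested genes. In 103 genes every 15dpa library lay below every Intact library (20.5% of tested genes). The level at 15dpa ran from 13.8% to 251.4% of Intact, and 49 genes were at 50% or more. By library, the median gene stood at 44.9% to 50.03% of its Intact mean at 15dpa and at 91.4% to 113.6% in Intact, so the libraries of these groups did not overlap. Because the same Intact libraries chose the genes, and a chance high in Intact favours membership, these comparisons are not fully free of the rule. Without Intact replicate 1, 97 of the 119 were lower, and 3567 of all tested genes.

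The comparison at 21dpa gave fewer calls. Of the 119 genes, 90 were lower than Intact, 1 was higher and 28 did not pass (18.7% of tested genes were lower and 20.6% higher), with a median log2 fold change of -0.83 against 0.03 over all tested genes. In 88 genes the 21dpa libraries all lay below the Intact libraries (17.3% of tested genes). Called lower by at least 2-fold were 39 genes of the set and 981 of all 17341 tested genes. Here 79 genes were at 50% of Intact or more, and 9 had a mean above Intact. By library, the median gene stood at 51.3% to 57.3%, above all 4 15dpa libraries. Without Intact replicate 1, 86 were lower, and 3133 of all tested genes. The genes lower at both days numbered 88, those lower at 15dpa and not called at 21dpa numbered 15, those not called at 15dpa and lower at 21dpa numbered 2, and 13 were called at neither. These joint counts were made for the set only, with no share over all tested genes. That a gene passed at 15dpa and not at 21dpa does not show that it changed between them, which the direct comparison below tests.

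The comparisons at 9dpa and 12dpa are touched by the rule only through the bound between them and through Intact. At 9dpa 112 of the 119 were lower than Intact and 7 did not pass (20.4% of tested genes were lower). At 12dpa 108 were lower and 11 did not pass (28.6% of tested genes were lower). The median log2 fold changes were -1.30 and -1.14. All 4 of these days, 9, 12, 15 and 21, had the gene called lower in 84 of the 119 cases. The share of all tested genes lower on all 4 days was not computed. It can be at most the 18.7% lower at 21dpa.

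**Figure D2:**
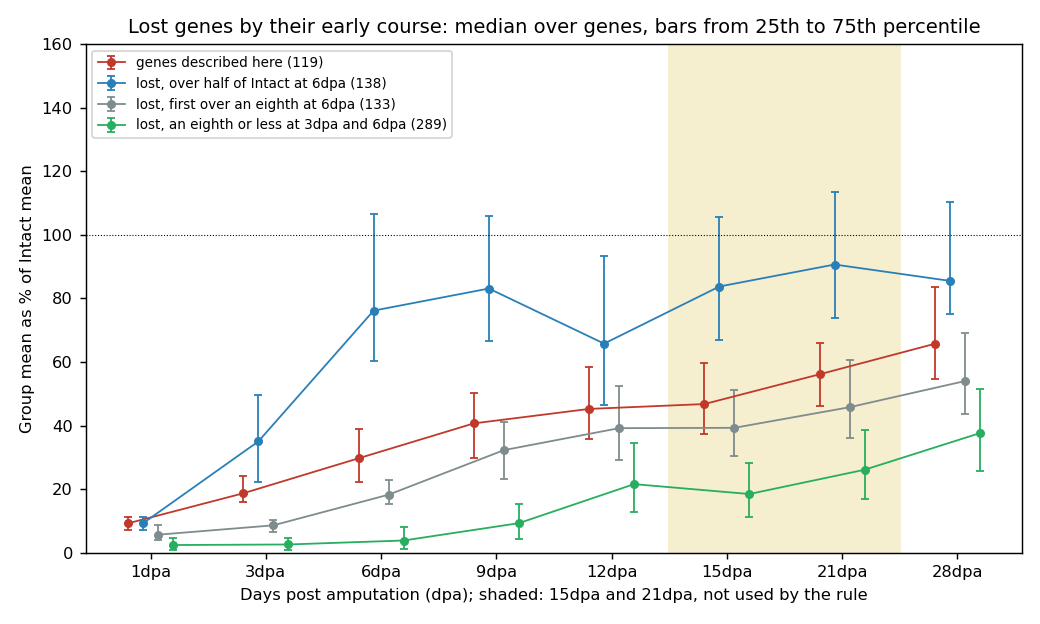
Median level of 4 sets of lost genes by day (equally spaced groups on the x axis), as percent of Intact, with bars from the 25th to the 75th percentile over genes; 15dpa and 21dpa, shaded, were not used by the rule. The 119 genes (red) lie at 46.8% and 56.1% there, under the genes over 50% at 6dpa (blue) and over the sets that returned later (grey and green).

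Between 15dpa and 21dpa, where neither group had any part in choosing the genes, more of the set rose than fell. By edgeR's quasi-likelihood test 20 of the 119 genes rose, 1 fell and 98 did not pass (6.60% of tested genes rose and 6.45% fell). The mean was higher at 21dpa in 90 genes, and the median log2 fold change was 0.23 over the set and 0.01 over all tested genes. In 24 genes all 21dpa libraries lay above all 15dpa libraries (8.26% of tested genes), and in 2 they all lay below (7.83%). The risers gained between 0.46 and 1.78 on the log2 scale. At 21dpa 12 of the 20 were still lower than Intact, 7 were not called against it and 1 was higher. The number of calls, 21 in both directions, depended on single libraries, as it did over all tested genes (1144 rose and 1119 fell). It was 12 when 15dpa replicate 2 was left out (all tested genes: 523 rose, 595 fell). Without 15dpa replicate 3 or 4 it was 13 (749 and 711 rose, 843 and 768 fell, in that order). Without 21dpa replicate 2 it was 11 (539 rose, 674 fell). On library size alone as scaling, which moved the median of all tested genes to -0.10, 13 rose and 1 fell. Over all tested genes 645 then rose and 2308 fell.

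**Figure D3:**
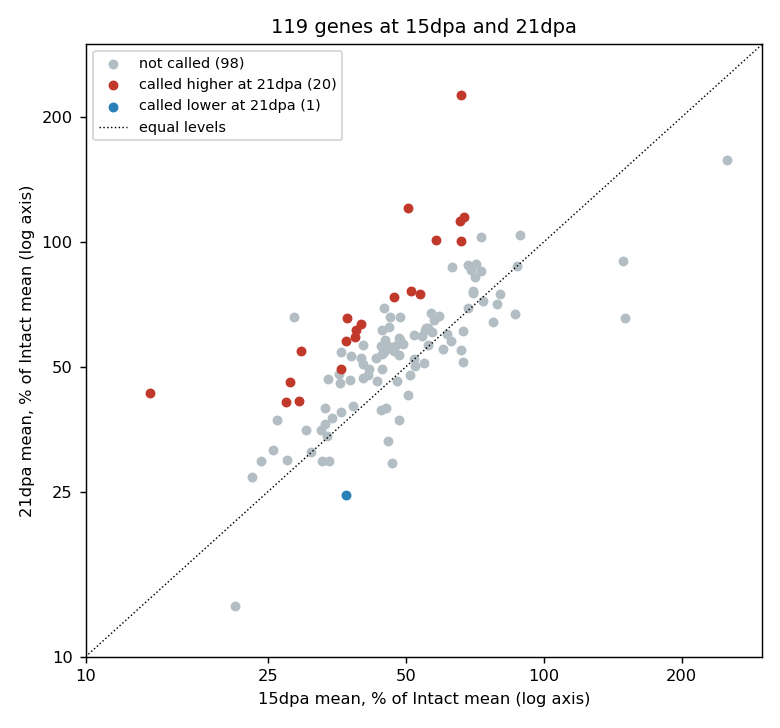
Mean level of each of the 119 genes at 15dpa (x axis) and 21dpa (y axis), both as percent of the Intact mean on log axes; the dotted line marks equal levels. Most points lie above the line, with the 20 genes that rose in red, the 1 that fell, LOC112564549, in blue and the 98 that did not pass in grey.

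LOC112564750 had the smallest p of this contrast. Its CPM were 3.60, 5.01, 4.13 and 3.87 in the 15dpa libraries and 10.6, 9.70, 11.1 and 8.25 in the 21dpa libraries, where Intact held 9.31, 5.68, 10.2 and 7.66. Every 21dpa library was higher than every 15dpa library and lay among or just over the Intact values. The log2 fold change from 15dpa to 21dpa was 1.27 ± 0.165 (SE; edgeR adjusted p = 1.03e-05). The course of this gene was not monotonic: from 0.773 ± 0.182 CPM (SD, n = 4) at 1dpa it reached 2.96 ± 0.470 at 9dpa and 9.13 ± 0.920 at 12dpa. It was at 4.15 ± 0.610 on day 15 and at 15.1 ± 2.35 on day 28. The 12dpa libraries, from 7.97 to 10.01 CPM, lay above all 9dpa and 15dpa libraries. At 28dpa the mean was 184% of Intact, with a log2 fold change of 0.91 ± 0.152 (edgeR adjusted p = 2.80e-05, a contrast that the rule bounds from below).

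LOC112562125 shared the overshoot at 28dpa. Its CPM were 27.5, 30.0, 33.3 and 26.9 at 15dpa and 50.8, 53.9, 58.4 and 41.5 at 21dpa, so that the groups did not overlap. It rose by 0.81 ± 0.166 on the log2 scale (edgeR adjusted p = 0.00184). Against Intact, with 65.9, 43.8, 46.0 and 46.5 CPM, the 21dpa value differed by 0.02 ± 0.164 (adjusted p = 0.931), and the 28dpa libraries reached 99.2, 56.1, 86.3 and 87.1. Intact replicate 1 was the highest of its group, and the 28dpa libraries except replicate 2 lay above it.

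LOC112553707 and LOC112573790 also rose between these days. LOC112553707 held 127, 103, 115 and 122 CPM at 15dpa and 218, 225, 153 and 203 at 21dpa, a log2 fold change of 0.78 ± 0.147 (edgeR adjusted p = 0.000798). Its 28dpa mean was 145 ± 23.3 CPM (SD, n = 4), 81.5% of Intact, so the 21dpa mean was its highest after amputation. LOC112573790 held 22.7, 19.2, 18.3 and 18.9 CPM at 15dpa and 31.9, 36.5, 44.3 and 34.0 at 21dpa, a log2 fold change of 0.90 ± 0.175 (edgeR adjusted p = 0.0011). The groups did not overlap in either gene, and LOC112573790 was still at 54.7% of Intact at 21dpa and at 66.0% at 28dpa.

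Only 1 gene of the set was higher at 21dpa than in Intact by edgeR's test, LOC112555706, singled out after its values were seen. Intact held 71.9, 102, 70.5 and 51.0 CPM, and 21dpa held 211, 147, 96.5 and 213. Replicate 3 of 21dpa lay below Intact replicate 2 and the other 21dpa libraries above all Intact libraries. The log2 fold change was 1.18 ± 0.387 (adjusted p = 0.0164), a call lost without Intact replicate 4, its lowest Intact library, and that from 15dpa to 21dpa was 1.78 ± 0.395 (adjusted p = 0.00374), the largest of the 20. Its libraries spread widely at 9dpa as well, at 118, 72.9, 274 and 74.8 CPM, a mean of 182% of Intact that did not pass the test (log2 fold change 0.86 ± 0.385, adjusted p = 0.0726).

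LOC112564549 was the only gene of the set that fell between 15dpa and 21dpa. The 15dpa libraries held 10.1, 10.05, 11.0 and 8.88 CPM and the 21dpa libraries 6.57, 8.30, 4.27 and 7.35, without overlap. The log2 fold change was -0.58 ± 0.167 (edgeR adjusted p = 0.0201). The call was lost without 21dpa replicate 3, the lowest of its group (adjusted p = 0.0799), and in a fit to only the 15dpa and 21dpa libraries (adjusted p = 0.0765). It had the lowest 28dpa level of the set, 25.8% of Intact, just over the bound of 25%.

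LOC112561876 held the most counts of the set. The Intact libraries held 4188, 2709.8, 3046 and 3957 CPM, the 1dpa libraries 299.6, 443, 375 and 276, and the 3dpa libraries 362, 222, 261 and 944. At 3dpa only replicate 4 lay above all 1dpa libraries, and the group mean, 12.9% of Intact, was just over the bound. Without that library the mean was 282 CPM, 8.10% of Intact, under the bound and under the gene's 1dpa mean of 349 CPM, so its place in the set rests on 3dpa replicate 4. The 9dpa libraries held 1713, 1069, 2029 and 1888 CPM, and the 12dpa libraries 691, 864, 904 and 904, below every 9dpa library. At 15dpa the libraries held 1610.3, 1240.1, 1577 and 1788 CPM and at 21dpa 1679, 2438, 1342 and 2075, all below the Intact libraries. Against Intact the log2 fold changes were -1.06 ± 0.321 at 9dpa (edgeR adjusted p = 0.00814) and -2.05 ± 0.330 at 12dpa (adjusted p = 4.68e-06). They were -1.17 ± 0.321 on day 15 (adjusted p = 0.00372) and -0.88 ± 0.320 on day 21 (adjusted p = 0.0301). The call at 21dpa was lost on leaving out any of 4 libraries: the adjusted p was 0.0750 without Intact replicate 1 and 0.0658 without Intact replicate 4. Leaving out 21dpa replicate 1 gave 0.0736, and leaving out its replicate 3 gave 0.101. The dip at 12dpa passed against 9dpa (log2 fold change -0.99 ± 0.320, adjusted p = 0.0200) and against 15dpa, which was higher by 0.88 ± 0.320 (adjusted p = 0.0387).

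LOC112562388 stayed below Intact on every day after amputation. Its mean was 63.5 ± 19.8 CPM (SD, n = 4) at 1dpa, 147 ± 31.5 by 3dpa and 137 ± 16.1 by 6dpa, and the difference between 3dpa and 6dpa did not pass (log2 fold change -0.14 ± 0.167, edgeR adjusted p = 0.566). Intact held 992, 979.9, 1123 and 892 CPM, 15dpa held 232, 256, 283 and 327, and 21dpa held 327, 288, 280.1 and 290.0. Every library of both days lay far below Intact, with log2 fold changes of -1.87 ± 0.171 (edgeR adjusted p = 1.33e-10) and -1.74 ± 0.170 (adjusted p = 9.16e-10). The difference between 15dpa and 21dpa, 0.12 ± 0.166, did not pass (adjusted p = 0.665). At 28dpa the mean was 366 ± 30.5 CPM (SD, n = 4), 36.8% of Intact.

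LOC112573144 had libraries close together. Intact held 424, 426, 458 and 446 CPM, 12dpa held 111, 107, 108 and 104, and 15dpa held 145, 135, 158 and 147. The 12dpa libraries lay below those of 9dpa, at 144, 115, 141 and 125, and the log2 fold change from 9dpa to 12dpa was -0.28 ± 0.101 (edgeR adjusted p = 0.0336). At 21dpa the mean was 174 ± 13.9 CPM (SD, n = 4), 39.8% of Intact and lower by the test (log2 fold change -1.32 ± 0.102, adjusted p = 5.02e-12).

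The 12dpa group was no common low or high point of the set. The 12dpa mean was above both the 9dpa and the 15dpa mean in 54 genes, 45.4% of the set and 45.4% of all tested genes with at least 5 CPM in Intact. It was below both in 36, 30.3% of the set and 35.4% of those genes. The rule itself removed genes whose 12dpa mean was 50% of the 9dpa mean or less. LOC112567689 was among the genes with a high 12dpa mean: its libraries held 84.5, 87.5, 87.7 and 77.1 CPM at 9dpa, 181, 125, 132 and 143 at 12dpa, and 89.1, 110.4, 101 and 81.2 at 15dpa. All 12dpa libraries lay above those of both other days. The log2 fold changes were 0.80 ± 0.136 from 9dpa to 12dpa (edgeR adjusted p = 4.60e-05) and -0.61 ± 0.135 from 12dpa to 15dpa (adjusted p = 0.00105). With Intact at 262, 288, 307 and 279.7 CPM, its mean was 51.1% of Intact at 12dpa, and 33.6%, 34.1% and 44.3% on days 15, 21 and 28.

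The gene next to it in the gene table, LOC112567687, is also in the set and had a like course. It held 32.3, 22.6, 25.4 and 19.0 CPM at 9dpa, 35.0, 39.6, 43.9 and 50.6 at 12dpa, and 34.6, 33.2, 31.0 and 27.5 at 15dpa. Its 12dpa libraries lay above those of 9dpa and 15dpa, at 51.3% of Intact for the group, with log2 fold changes of 0.78 ± 0.159 from 9dpa (edgeR adjusted p = 0.000409) and -0.43 ± 0.157 to 15dpa (adjusted p = 0.0398). How reads that match both genes were counted is not given in the sources used here, and how far the counts of neighbours are independent was not tested.

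A run of 3 neighbours made up the other adjacent pairs in the set: LOC112562771, LOC112561535 and LOC112561534. Relative to Intact they stood at 51.0%, 64.7% and 28.0% at 12dpa, at 38.7%, 61.6% and 50.5% at 15dpa, and at 58.9%, 59.9% and 42.7% at 21dpa, in that order. LOC112562771 rose from 15dpa, with 9.57, 8.98, 9.22 and 8.58 CPM, to 21dpa, with 13.8, 15.9, 13.5 and 12.0 (log2 fold change 0.62 ± 0.129, edgeR adjusted p = 0.00216). The same contrast was -0.03 ± 0.228 for LOC112561535 (adjusted p = 0.951) and -0.23 ± 0.323 for LOC112561534 (adjusted p = 0.687), and neither passed. The difference in this change between the genes was not tested. At 28dpa the means of these 2 genes were 92.7% and 91.0% of Intact, and that of LOC112562771 was 70.0%. In all, 3 adjacent pairs lay within the 119 genes, 78 within the other 603 lost genes and 92 within all 722.

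The other abundant members lay near the middle of the set. LOC112573113 held 314, 238, 253 and 223 CPM in Intact and 127, 107, 120.0 and 116 at 15dpa, without overlap (log2 fold change -1.14 ± 0.119, edgeR adjusted p = 2.24e-09). LOC112555896 had 226 ± 19.5 CPM (SD, n = 4) in Intact, 97.5 ± 6.09 at 15dpa, then 119 ± 11.3 on day 21 and 118 ± 3.63 on day 28, so its mean was no higher at 28dpa than at 21dpa. LOC112566921 had the deepest early loss of the abundant members, to 3.58% of Intact at 1dpa, and stood at 57.1%, 60.6% and 73.5% on days 15, 21 and 28. LOC112570737 was slow at first: its libraries held 23.9, 21.2, 22.5 and 22.8 CPM at 1dpa and 18.8, 26.0, 25.9 and 24.8 at 3dpa, which overlap. Its means were 12.5%, 13.2% and 17.9% of Intact on days 1, 3 and 6, and 43.3% and 46.3% on days 15 and 21.

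**Figure D4:**
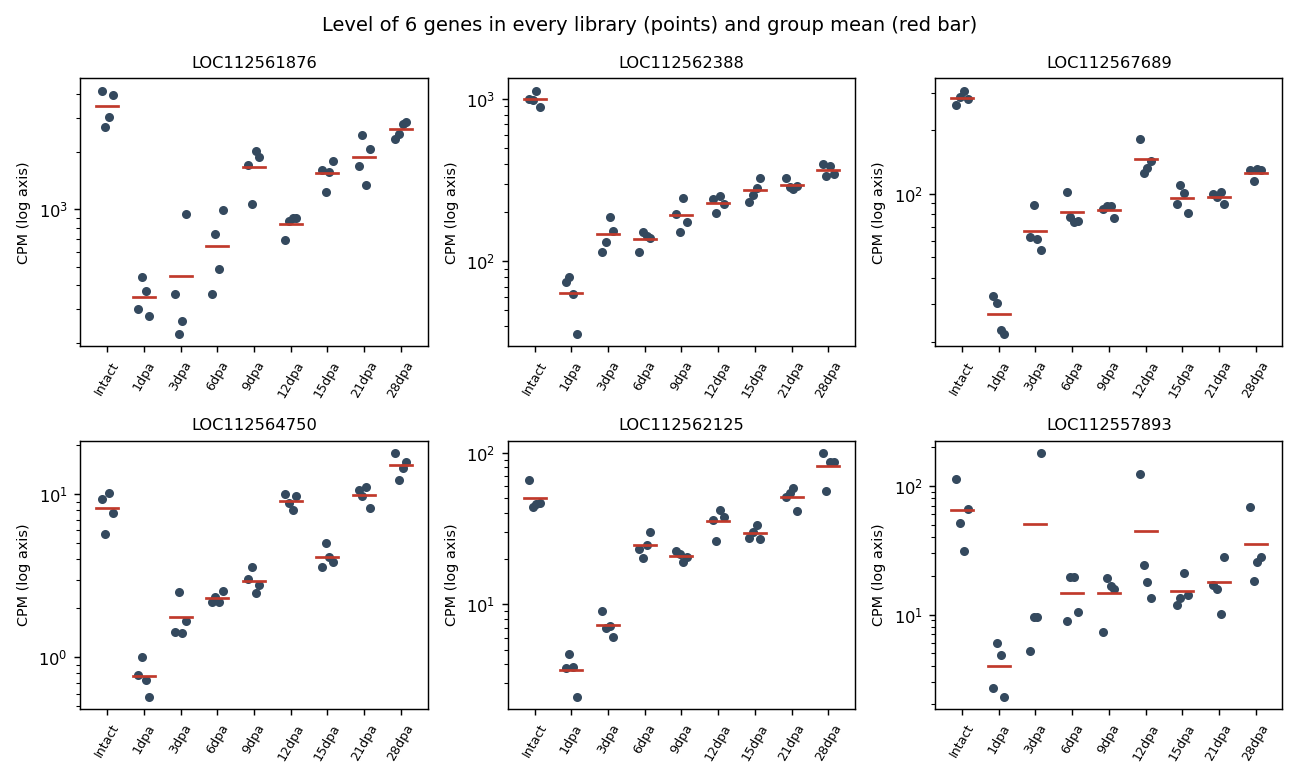
CPM of 6 genes in every library (points; 4 per group) with group means (red bars), on log axes. At 12dpa the mean of LOC112561876 lies below, and those of LOC112567689 and LOC112564750 above, the means at 9dpa and 15dpa; LOC112562388 ends at 36.8% of Intact, LOC112562125 ends above Intact, and LOC112557893 has single high libraries at 3dpa and 12dpa.

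At the low end at 15dpa stood LOC112563625, LOC112560741 and LOC112557893. LOC112563625 held 37.5, 23.3, 13.8 and 24.7 CPM in Intact, 4.93, 2.03, 3.30 and 3.50 at 15dpa and 5.80, 15.9, 10.4 and 10.8 at 21dpa. Its 15dpa mean, 13.8% of Intact, was the lowest of the set, and all 15dpa libraries lay below Intact and below 21dpa. The log2 fold change from 15dpa to 21dpa was 1.65 ± 0.411 (edgeR adjusted p = 0.00845).

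LOC112560741 was a gene of few counts that hardly returned. It held 9.66, 5.61, 4.21 and 5.02 CPM in Intact, 1.43, 0.841, 1.74 and 1.18 at 15dpa and 1.25, 0.830, 0.506 and 0.657 at 21dpa. Both days lay below every Intact library, at 21.2% and 13.2% of Intact (log2 fold changes -2.24 ± 0.258, edgeR adjusted p = 1.20e-08, and -2.92 ± 0.283, adjusted p = 5.62e-10). The difference between the days, -0.68 ± 0.351, did not pass (adjusted p = 0.199). LOC112566281 was the other gene among the 3 lowest at 28dpa, at 29.7% of Intact, after 46.6% at 15dpa and 29.3% at 21dpa; its 21dpa libraries held 2.50, 8.08, 3.80 and 4.02 CPM against 7.16, 5.88, 9.10 and 7.15 at 15dpa, which overlap (log2 fold change -0.65 ± 0.295, adjusted p = 0.142). Without 21dpa replicate 2, the highest of its group, the fall passed (-1.09, adjusted p = 0.0253).

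LOC112557893 was another gene whose membership rested on 3dpa replicate 4. The 3dpa libraries held 5.21, 9.53, 9.55 and 179 CPM, a group mean of 77.7% of Intact. Without replicate 4 that mean was 12.4% of Intact, under the bound of 12.5%. At 12dpa replicate 1 held 123 CPM and the others 24.3, 18.0 and 13.3, and Intact spread from 31.4 to 113. At 15dpa it was lower than Intact (log2 fold change -2.14 ± 0.792, edgeR adjusted p = 0.0286), a call lost without Intact replicate 1 (adjusted p = 0.0981) and without 15dpa replicate 1, 2 or 4 (adjusted p from 0.0622 to 0.0690).

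At the high end at 15dpa stood LOC112576996, LOC112576994 and LOC112565268, with 15dpa means of 251.4%, 150.6% and 148.9% of Intact. None of the 3 passed against Intact at that day in edgeR's test, and the libraries of each were far apart. LOC112576996 held 4.11, 3.99, 10.6 and 2.97 CPM in Intact and 16.9, 5.85, 22.0 and 9.72 at 15dpa, which overlap (log2 fold change 1.35 ± 0.688, adjusted p = 0.111; adjusted p = 0.0458 in a fit to only these 2 groups). At 28dpa it had 0 counts in replicate 4 and 346, 467 and 487 counts in replicates 1, 2 and 3.

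LOC112576994 held 30.6, 9.63, 7.81 and 8.69 CPM in Intact and 12.1, 12.5, 17.0 and 43.8 at 15dpa, which overlap. Its log2 fold change was 0.57 ± 0.606 (edgeR adjusted p = 0.468). LOC112565268 held 9.46, 6.83, 5.79 and 5.17 CPM in Intact and 5.52, 8.94, 7.55 and 18.6 at 15dpa, which also overlap, and its log2 fold change was 0.56 ± 0.321 (adjusted p = 0.159). From 12dpa, at 2.28, 4.72, 1.74 and 6.89 CPM, to 15dpa it was higher by 1.36 ± 0.333 on the log2 scale (adjusted p = 0.00278), although the highest 12dpa library lay above the lowest 15dpa library. LOC112558066, singled out after its values were seen, had wide swings of its group means: 49.9% of Intact on day 3, 6.98% on day 12, 45.1% on day 15 and 134% on day 28, with Intact libraries at 23.6, 7.05, 4.21 and 7.77 CPM.

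Of the 4 genes just inside the 3dpa bound and the upper 6dpa bound, LOC112553707 was at 65.6% of Intact at 15dpa (log2 fold change -0.61 ± 0.147, edgeR adjusted p = 0.00098). LOC112566575 was lower than Intact at 15dpa (log2 fold change -1.17 ± 0.183, edgeR adjusted p = 3.73e-06) and at 21dpa (-0.69 ± 0.179, adjusted p = 0.00262). LOC112555695 was lower at 15dpa, with 5.38, 5.39, 6.60 and 6.08 CPM against 12.6, 7.60, 7.20 and 6.41 in Intact (-0.54 ± 0.201, adjusted p = 0.0289). Its groups overlapped, and without Intact replicate 1 the log2 fold change was -0.27 (adjusted p = 0.262). The call was also lost without 15dpa replicate 1 (adjusted p = 0.0686) or 2 (adjusted p = 0.0735). LOC112567715 did not pass at 15dpa (-0.46 ± 0.242, adjusted p = 0.122; 0.0498 without Intact replicate 3) or at 21dpa (-0.23 ± 0.241, adjusted p = 0.468). The means of LOC112555695 and LOC112567715 were at 69.3% and 72.9% of Intact at 15dpa and 85.6% and 85.0% at 21dpa.

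The spread between libraries was wider in the set than in all genes of at least 5 CPM in Intact, as a description with no test. The median coefficient of variation over the set was 14.3% in Intact and 23.5%, 22.8%, 13.5% and 14.0% on days 1, 3, 15 and 21, against 9.77%, 12.0%, 12.5%, 10.5% and 10.5% over those genes in the same order. The values at 1dpa and 3dpa rest on fewer counts, since the set was at its lowest there.

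Beside the other lost genes, the set took a middle place at the days that the rule left free. At 15dpa and 21dpa the median gene stood at 46.8% and 56.1% of Intact in the set, 83.7% and 90.6% in the 138 lost genes over 50% at 6dpa, 39.3% and 45.8% in the 133 first over 12.5% at 6dpa, and 18.5% and 26.1% in the 289 at or under 12.5% at both 3dpa and 6dpa. By library, the set's median ranged from 44.9% to 50.03% at 15dpa, above the 38.5% to 41.3% of the 133 genes and below the 77.4% to 85.6% of the 138. At 21dpa the ranges were 51.3% to 57.3%, 42.9% to 47.8% and 78.5% to 104.1%, again without overlap. The 4 sets are split by their 3dpa and 6dpa means, and their order at later days was not tested. Only the 119 also had to pass the 12dpa and 28dpa bounds, which took them from 155 genes to 119. Their levels and shares at 15dpa and 21dpa are therefore set beside sets without these bounds. Lower than Intact at 21dpa were 75.6% of the set, 20.3% of the 138, 87.2% of the 133 and 96.5% of the 289. From 15dpa to 21dpa 16.8% of the set rose, 18.8% of the 138, 18.0% of the 133 and 34.6% of the 289.

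Genes were also chosen on some replicates and measured in the others, so that within a choice no library did both. The bounds of the rule were set with earlier results of all replicates known, so the measuring replicates are no independent test of it. The rule applied to replicates 1 and 2 of each group chose 136 genes, 89 of them among the 119, and 65 of the 136 also met the rule in replicates 3 and 4. In replicates 3 and 4, 134 of the 136 were lower than Intact at 1dpa by edgeR's test (34.5% of tested genes), 89 at 15dpa (14.6%) and 69 at 21dpa (13.5%), and 1 was higher at 15dpa and at 21dpa (14.5% and 13.3%). From 1dpa to 3dpa 92 rose in these replicates (23.5%), and the median gene stood at 22.3% of Intact at 3dpa. From 15dpa to 21dpa 4 rose (1.09%).

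Chosen on replicates 3 and 4, 137 genes met the rule, 83 of them among the 119, and 65 of the 137 also met the rule in replicates 1 and 2. In replicates 1 and 2, 135 of these were lower than Intact at 1dpa (31.7% of tested genes), 106 at 15dpa (12.4%) and 77 at 21dpa (8.18%). From 1dpa to 3dpa 62 rose (15.6%) and 2 fell (18.0%), and the median gene stood at 16.6% of Intact at 3dpa. From 15dpa to 21dpa 1 rose (0.511%). The median levels at 15dpa were 50.7% of Intact in the first choice and 45.7% in the second, either side of the 46.8% over all libraries. The level at 3dpa was thus also measured in libraries that did not pick the genes of that choice, which were only partly the 119. The rule itself was set with earlier results of these data known, so no library was wholly free of it. On the measuring side of the first choice and the choosing side of the second stood 3dpa replicate 4.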

How the data were processed

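RNA was extracted from eye stalks with Trizol, per the labels' protocols, and the 36 libraries were of polyadenylated RNA. The deposited table gives, as the authors made it, the raw count of reads for each gene in every library. The submitters' processing notes name STAR. The build, the annotation, STAR's version and the strand setting: not given in the sources used here. Groups and replicate numbers came from the labels. The analysis ran in edgeR 4.0.16 under R 4.3.3, with TMM scaling. The rule was applied to the 19622 genes with a summed count of at least 10. filterByExpr on the 9 groups left 17341 genes, the 119 included, and 1 quasi-likelihood model (glmQLFit, robust, group means only) was fitted to all 36 libraries, with 2-sided tests, Benjamini-Hochberg adjustment over all tested genes and a threshold of 0.05. The members and lists were chosen with earlier results of these data known.

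Named were the 8 members of highest Intact CPM, the 3 highest and 3 lowest at 15dpa and at 28dpa over Intact, the 4 of smallest p from 15dpa to 21dpa, the genes nearest the 3dpa and 6dpa bounds, and neighbours in the gene table; exceptions are marked. Pairs by protein identity and all sequences are not analysed here. CPM are not scaled to gene length, so levels are not compared between genes. Errors of CPM are SDs over 4 libraries, and those of log2 fold changes are standard errors from the F statistic. The 54 pairs of libraries within groups differed in a chi-square test of counts (at least 10.2 per degree of freedom), so none was counted as a repeat. The main fit did not pair libraries by replicate number. The test was also tried on simulated counts with few genes changed, unlike these data, and no result here rests on that trial. Alternatives were other scalings, no further filter, DESeq2 1.42.0, limma-voom (limma 3.58.1), a fit restricted to the compared groups, a replicate block, a minimum fold change, the group median in the rule and each library left out.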

Additional observations from a re-analysis of the deposited data

Results flagged for a closer look

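In 17 of the 243 groups of 4 libraries examined for the named genes, the highest or lowest library lay apart from the other 3 by Dixon's criterion, where chance alone gives about 1 in 20. Intact replicate 1 was high in 4 of them: LOC112576994 at 30.6 CPM (the other libraries 7.81 to 9.63), LOC112562125 at 65.9 (43.8 to 46.5), LOC112573790 at 84.9 (59.1 to 62.7) and LOC112567687 at 99.2 (75.6 to 79.3). Intact replicate 3 was high for LOC112576996, at 10.6 CPM (2.97 to 4.11).

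At 3dpa, replicate 4 was high for LOC112557893 at 179 CPM (5.21 to 9.55) and for LOC112573113 at 88.6 (63.6 to 66.6). In the same group replicate 3 was high for LOC112553707 at 45.5 (37.1 to 38.3), and replicate 1 was low for LOC112570737 at 18.8 (24.8 to 26.0). At 6dpa, LOC112567689 was high in replicate 1 at 102 CPM (73.3 to 77.9) and LOC112561534 in replicate 3 at 5.19 (3.17 to 3.44). At 12dpa, LOC112557893 was high in replicate 1 at 123 CPM (13.3 to 24.3) and LOC112573790 was low in replicate 2 at 21.5 (25.6 to 26.0).

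At 15dpa, LOC112576994 was high in replicate 4 at 43.8 CPM (12.1 to 17.0). At 28dpa it was low in replicate 1 at 10.2 CPM (19.9 to 21.7), LOC112567689 was low in replicate 2 at 115 (129 to 131), and LOC112566921 was high in replicate 4 at 161 (143 to 145).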

How the results depend on the processing

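Over the named genes and 5 comparisons, 2160 values were recomputed under other settings: 2104 kept their side of the threshold, 39 lost the call and 17 gained it. Of the values called in either fit, 0 changed sign. Changes of sign in values called in neither fit were not counted. Leaving out 1 library gave 107 to 110 members called at 9dpa against Intact, 103 to 108 at 12dpa, 97 to 104 at 15dpa, 86 to 93 at 21dpa and 11 to 20 from 15dpa to 21dpa; it gave 107 to 136 members by the rule, and median levels of 45.6% to 48.7% of Intact at 15dpa and 54.5% to 59.0% at 21dpa. A log2 fold change of at least 1 left 71 calls at 12dpa, 40 at 21dpa and 3 from 15dpa to 21dpa, by construction. Over all 17341 tested genes it left 1556 higher and 2094 lower at 12dpa, and 1182 higher and 981 lower at 21dpa. From 15dpa to 21dpa it left 296 higher and 201 lower. On library size alone the median level at 21dpa was 51.9% of Intact, and the set's 15dpa to 21dpa calls numbered 14; of the calls over all tested genes in that contrast 21.8% were higher, whereas the TMM fit had 1144 higher and 1119 lower. The cause was not tested. The rule chose 129 genes under DESeq2's size factors (113 shared), 161 on library size alone (107 shared) and 108 on group medians (93 shared). From 15dpa to 21dpa DESeq2 and limma-voom each called 22, the fit to only those groups 15, and the older quasi-likelihood method, added after the data were seen, 16. Over all tested genes DESeq2 called 1353 higher and 1132 lower, and limma-voom 1071 and 1016. The fit to only those groups called 679 and 600, and the older method 962 and 976.

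Libraries of the same number did not deviate together in the median (correlation -0.0106 over 144 pairs, from -0.213 to 0.292), though 25 pairs were over 0.1. Of the 36 libraries, 6 correlated best with their own number. Whether equal numbers share animals or a batch cannot be told from these correlations. With the replicate block 113, 108, 103 and 91 members were called at 9dpa, 12dpa, 15dpa and 21dpa, and 21 from 15dpa to 21dpa. Over all tested genes 3539, 4979, 3835 and 3212 were then lower on these days, in that order. Higher were 3843, 4791, 3965 and 3595. From 15dpa to 21dpa 1149 were higher and 1107 lower. Depth limits genes of few CPM at 1dpa, where a member can rest on 9 counts.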
